A study of Homo sapiens with 8 samples.

Results

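The effect of dexamethasone on cells that also received estradiol was measured by sequencing mRNA of Ishikawa cells, a long-used human cell line from an endometrial adenocarcinoma that expresses the estrogen receptor. Cells given both hormones (dexamethasone at 100 nM and estradiol at 10 nM) were set against cells given estradiol alone at 10 nM, so that estradiol was present in every library compared and dexamethasone was the only labelled difference. Each of these groups had 2 libraries, and the 4 libraries were chosen by their treatment labels out of 8 in the series. The other 4 libraries were 2 of cells given dexamethasone alone at 100 nM and 2 of cells given DMSO, the solvent. All were of this cell line, grown in phenol red-free medium with hormone-stripped serum. The sample labels give 8 hr of treatment and a protocol text common to all samples gives 1 hr, which the sources used here do not settle. Of the combination libraries, 1 is numbered 1, and the other, whose column also carries the number 1, is called the unnumbered library.

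Dexamethasone is a synthetic agonist of the glucocorticoid receptor, and estradiol activates the estrogen receptor. Both are steroid receptors that enter chromatin as dimers or through other factors and recruit shared coactivators. Ligand-bound glucocorticoid receptor directly raises genes that limit inflammation, set sodium and lipid transport, feed back on the receptor itself and adjust the circadian clock. In the endometrium estradiol drives growth of the epithelium, and glucocorticoids are known to oppose part of its action in the uterus of rodents.

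The 8 libraries held 17846211 to 22487333 counts assigned to genes. The combination libraries had 22487333 (replicate 1) and 22305665 (unnumbered), and the estradiol libraries had 17846211 (replicate 1) and 22431871 (replicate 2). Libraries of the same group differed by more than counting noise, with chi-square values per degree of freedom of 12.2 for the combination pair and 9.61 for the estradiol pair. The labels do not say whether they came from separate cultures, so the spread behind the p-values may be technical. The ribosomal RNA gene RNA45S5 took 3.08 and 3.97% of counts in the combination libraries and 3.13 and 2.79% in the estradiol libraries, and the count of called genes was the same with that gene left out. Of 11 markers of endometrial epithelium 10 were expressed, with FOXA2 at 0 or 1 count. Of the markers of other cells, 2 of 8 leukocyte, 3 of 6 endothelial and 5 of 8 stromal genes passed the filter on low counts. Over the 8 libraries COL1A1 had 2506 to 3813 counts, COL3A1 194 to 312, ESAM 103 to 175, VWF 33 to 57 and CD68 17 to 40, whereas PTPRC, CD3E, PECAM1, CDH5 and DCN had at most 3. The 8 leukocyte markers summed to 1.95 and 1.12 CPM in the combination libraries and 2.08 and 2.74 CPM in the estradiol libraries. The 6 endothelial markers summed to 11.2 and 9.74 CPM in the combination libraries and 7.83 and 8.43 CPM in the estradiol libraries, and the 8 stromal markers to 138 and 156 CPM in the combination libraries and 155 and 158 CPM in the estradiol libraries. The part of these differences in the results was not tested, and in a bulk sample fewer cells of a type cannot be told apart from less RNA per cell.

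In the fit of all 8 libraries, dexamethasone added to estradiol raised more genes than it lowered. Of 14201 genes tested, 39 (0.275%) passed edgeR's quasi-likelihood test with Benjamini-Hochberg adjustment over all genes (adjusted p under 0.05) and are named called genes. These were 34 higher genes (0.239%) and 5 lower genes (0.0352%). The balance depended on the method, with 46 higher and 29 lower genes in DESeq2, 71 and 61 with all genes of at least 1 count, and 71 and 80 in a fit of just the 4 libraries compared, while 10 higher genes and 0 lower were called without estradiol replicate 1. The higher genes were led by PER1, a repressor of the circadian clock, and TSC22D3, which encodes the anti-inflammatory protein GILZ. The lower ones included YJEFN3, ATHL1, CCNL2 and ANKRD1. At an unadjusted p under 0.05, 434 genes were higher (3.06%) and 470 lower (3.31%), so the excess of higher genes was found among the called genes of this fit and not at that threshold. The median log2 fold change over all tested genes was 0.00. CPM values are counts relative to a library size scaled by the TMM method, and serve to compare libraries and not genes. Log2 fold changes are dexamethasone plus estradiol over estradiol. The ± value is a standard error derived from the log2 fold change and the F statistic of edgeR's test. The 2 combination libraries lay on the same side of both estradiol libraries at each of the 39 genes. These genes were chosen by a test on the same libraries, so their separation is not further evidence. No such share over all tested genes is given here, or where groups below are said not to overlap. Those statements describe the libraries and add no evidence to the tests.

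**Figure D1:**
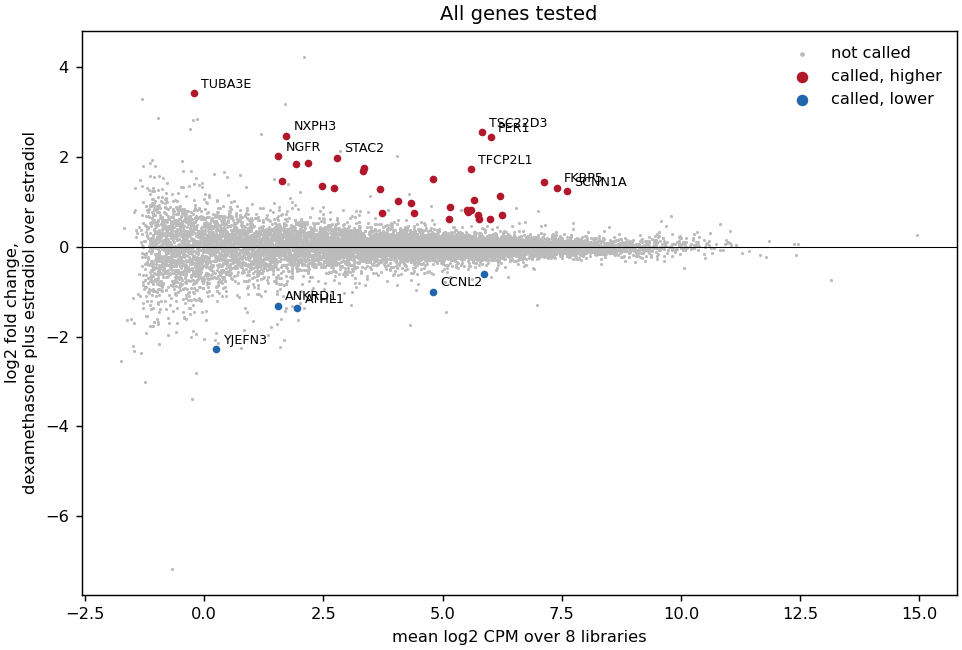
Log2 fold change of dexamethasone plus estradiol over estradiol (vertical axis) against the mean log2 CPM over the 8 libraries (horizontal axis), 1 point per gene tested. The 34 genes called higher (red) lie between 0.62 and 3.42 and the 5 called lower (blue) lie below 0, and most of the 14201 genes scatter about 0, more widely at low levels.

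The promoters of called genes were read to see which of them carry the letters bound by the receptors, since direct targets are among the best known of these genes. Windows from 250 bases before to 50 after an annotated start, from RefSeq on build GRCh38.p14, were found for 24 of the 34 raised genes (40 windows) and 3 of the 5 lowered ones (3 windows). Both strands were searched. The glucocorticoid response element in its palindromic form, GNACA and TGTNC with any 3 bases between, was present in 1 of the 40 windows, that of PPARGC1A, and in 0.26% of 15406 windows of tested genes. Its half-site AGAACA was present in 6 windows of BCL6, FKBP5, JADE2, PCDH17 and TACC2, against 9.85% of windows of tested genes. The estrogen response element, GGTCA and TGACC with any 3 bases between, was in 0 of the windows of called genes and in 0.0195% of windows of tested genes. The AP-1 site TGANTCA lay in a window each of BCL6, TACC2 and the lowered gene ANKRD1, against 5.19%. The E-box CACGTG, through which the circadian clock acts, lay in 7 windows of FKBP5, JADE2, PER1, PPARGC1A and TUBA3E, against 9.11%. The windows of a gene can overlap, as 2 of JADE2 with an E-box do, and the palindrome match of PPARGC1A does not contain the half-site. A match describes the letters and not binding. The 5 stretches below, each of 280 bases ending 30 bases past the start, show the leading gene of the comparison with its E-box, a receptor cochaperone with a half-site at its start, the palindrome of PPARGC1A, the half-site of PCDH17 on the opposite strand, and the AP-1 site of a lowered gene. Capitals mark the matches.
PER1, chr17:8152375-8152654, minus strand, E-box: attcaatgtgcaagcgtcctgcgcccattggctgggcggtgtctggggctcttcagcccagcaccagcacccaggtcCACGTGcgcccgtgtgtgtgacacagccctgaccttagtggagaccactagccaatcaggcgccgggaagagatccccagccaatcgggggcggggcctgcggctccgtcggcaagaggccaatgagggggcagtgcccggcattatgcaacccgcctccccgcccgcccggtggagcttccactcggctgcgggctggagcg
FKBP5, chr6:35728554-35728833, minus strand, half-site: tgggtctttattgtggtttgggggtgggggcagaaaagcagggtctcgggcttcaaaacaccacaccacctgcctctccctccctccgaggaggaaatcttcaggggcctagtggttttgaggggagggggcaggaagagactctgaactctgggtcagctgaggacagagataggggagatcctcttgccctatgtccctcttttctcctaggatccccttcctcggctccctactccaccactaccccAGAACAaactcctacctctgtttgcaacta
PPARGC1A, chr4:24472876-24473155, minus strand, palindrome and E-box: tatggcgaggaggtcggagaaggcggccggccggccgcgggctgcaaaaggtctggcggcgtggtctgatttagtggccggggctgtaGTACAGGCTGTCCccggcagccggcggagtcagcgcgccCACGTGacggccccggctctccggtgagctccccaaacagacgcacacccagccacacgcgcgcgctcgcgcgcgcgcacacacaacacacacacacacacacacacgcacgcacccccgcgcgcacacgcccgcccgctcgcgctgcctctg
PCDH17, chr13:57631494-57631773, plus strand, half-site read as TGTTCT: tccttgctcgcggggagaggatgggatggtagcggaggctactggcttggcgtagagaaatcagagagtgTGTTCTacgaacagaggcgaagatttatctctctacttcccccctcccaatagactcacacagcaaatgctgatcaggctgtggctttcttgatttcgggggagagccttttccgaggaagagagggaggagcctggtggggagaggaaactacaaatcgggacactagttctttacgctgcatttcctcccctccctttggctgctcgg
ANKRD1, chr10:90921058-90921337, minus strand, AP-1 site: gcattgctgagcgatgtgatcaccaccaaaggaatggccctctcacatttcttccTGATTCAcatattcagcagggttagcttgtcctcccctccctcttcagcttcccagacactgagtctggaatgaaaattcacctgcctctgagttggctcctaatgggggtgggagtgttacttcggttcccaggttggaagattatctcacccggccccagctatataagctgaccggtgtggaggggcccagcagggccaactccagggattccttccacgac

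PER1 and TSC22D3, both well-known receptor targets, had the smallest p-values but not every such target was called. SGK1, a kinase, had a log2 fold change of 0.26 (adjusted p = 0.971) and DUSP1, a MAP kinase phosphatase, 0.20 (adjusted p = 0.994), chosen for mention after their values were seen. PER1 stood at 90.6 and 95.7 CPM in the combination libraries, against 18.4 and 15.9 CPM in the estradiol libraries, a log2 fold change of 2.45 ± 0.11 (edgeR adjusted p = 2.56e-06). TSC22D3 stood at 70.0 and 63.5 CPM with both hormones against 10.7 and 11.9 CPM with estradiol (2.56 ± 0.14, adjusted p = 1.75e-05). At both genes each combination library stood far above each estradiol library. FKBP5, the cochaperone that lowers the hormone affinity of the glucocorticoid receptor, had 209 and 225 CPM with both hormones against 90.7 and 84.0 CPM with estradiol (1.31 ± 0.11). NFKBIA, which encodes the cytoplasmic inhibitor of NF-kB, had 94.2 and 88.0 CPM with both hormones against 39.5 and 43.5 CPM with estradiol (1.13 ± 0.10), and ZFP36, which encodes tristetraprolin, a protein that speeds the decay of cytokine mRNAs, had 25.4 and 24.7 CPM with both hormones against 12.8 and 12.1 CPM with estradiol (1.01 ± 0.11). The groups did not overlap at any of these genes, and ZFP36 had the smallest gap. ZFP36 was no longer called when either estradiol library was left out (adjusted p up to 0.0713).

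The raised genes included transcription factors and cofactors. TFCP2L1, an epithelial factor of the grainyhead family, had 93.8 and 105 CPM in the combination libraries, against 30.01 and 29.7 CPM in the estradiol libraries (1.73 ± 0.18, adjusted p = 0.00126). BCL6, a transcriptional repressor, had 12.6 and 11.9 CPM with both hormones against 3.72 and 3.84 CPM with estradiol (1.69 ± 0.17), and KLF9, a Krüppel-like factor known as a glucocorticoid target, 9.10 and 9.43 CPM with both hormones against 4.05 and 3.44 CPM with estradiol (1.31 ± 0.19). The groups did not overlap at these genes, and the 2 libraries of each group lay close together beside the gap between the groups. PPARGC1A, the coactivator PGC-1alpha of mitochondrial genes, had 4.70 and 5.39 CPM with both hormones against 2.08 and 1.90 CPM with estradiol (1.34 ± 0.20). VDR, the vitamin D receptor, rose by less, at 44.4 and 46.8 CPM with both hormones against 29.1 and 30.2 CPM with estradiol (0.62 ± 0.09). JADE2, a subunit of a histone acetyltransferase complex, had 52.9 and 54.7 CPM with both hormones against 29.2 and 31.4 CPM with estradiol (0.83 ± 0.10). The call of TFCP2L1 was lost with either estradiol library left out (adjusted p up to 0.0615), and those of BCL6 and JADE2 without estradiol replicate 1 (0.0525 and 0.0839). Those of KLF9, PPARGC1A and VDR were lost without any 1 of the 4 libraries compared.

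Other raised genes included ones of transport, metabolism and cell signalling. SCNN1A, a subunit of the channel that takes up sodium across epithelia, had 231 and 233 CPM in the combination libraries, against 97.8 and 99.4 CPM in the estradiol libraries (1.23 ± 0.09, adjusted p = 0.000161). MFSD2A, a transporter of lysophospholipids, had 192 and 187 CPM with both hormones against 65.4 and 74.1 CPM with estradiol (1.44 ± 0.11). PPP1R1B, which encodes DARPP-32, an inhibitor of protein phosphatase 1, had 29.4 and 25.3 CPM with both hormones against 9.01 and 10.3 CPM with estradiol (1.498 ± 0.13). The groups were well apart at all of these, and SCNN1A was the most even, with nearly equal libraries in each group. Exons of SCNN1A overlap those of LTBR on the opposite strand by 422 bases, and the strand setting of the counting is not given in the sources used here. GMPR, a GMP reductase, rose by 1.86 ± 0.21 and SLC16A14, of the monocarboxylate transporter family, by 0.76 ± 0.10. Among signalling genes, NGFR, the low-affinity neurotrophin receptor, had 5.32 and 5.07 CPM with both hormones against 1.07 and 1.46 CPM with estradiol (2.02 ± 0.23) and NXPH3, a secreted neurexin ligand, 4.88 and 4.80 CPM with both hormones against 0.845 and 0.883 CPM with estradiol (2.48 ± 0.22). Both were low genes, with 120 and 113 counts of NGFR in the combination libraries and 19 and 33 in the estradiol libraries. STAC2, which binds voltage-gated calcium channels, rose by 1.98 ± 0.21, and NKD2, an inhibitor of Wnt signalling that binds Dishevelled, by 0.97 ± 0.12. PRKX, a cAMP-dependent kinase, rose by 1.03 ± 0.14, and RASSF4, a Ras association protein, by 1.47 ± 0.23. The calls of SCNN1A, MFSD2A, PPP1R1B and NXPH3 held without each library, those of STAC2 and NGFR were lost without estradiol replicate 1 (adjusted p = 0.0561 and 0.0754), and those of GMPR, PRKX and RASSF4 without either estradiol library, with PRKX and RASSF4 also lost without combination replicate 1. NKD2 lost its call without combination replicate 1 or estradiol replicate 1, and SLC16A14 without any 1 of the 4 libraries compared.

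Brakes on proliferation were among the raised genes too. CDKN1A, the p21 inhibitor of cyclin-dependent kinases, had 64.8 and 61.9 CPM in the combination libraries, against 36.7 and 36.8 CPM in the estradiol libraries (0.78 ± 0.10). BTG2, an antiproliferative gene, had 52.3 and 50.2 CPM with both hormones against 29.9 and 28.6 CPM with estradiol (0.81 ± 0.10). Neither gene's groups came near each other, though both lost the call without combination replicate 1, estradiol replicate 1 or estradiol replicate 2 (adjusted p up to 0.0883). The other raised genes were PRR15L, PRR15, PCDH17, MICALCL, METTL7A, GPR153, TSKU, HOMER2, TACC2 and TUBA3E. Their log2 fold changes lay between 0.62 (HOMER2, a scaffold protein of synapses, and likewise TACC2) and 3.42 (TUBA3E, an alpha tubulin). PRR15L had 11.1 and 10.1 CPM in the combination libraries, against 2.93 and 3.36 CPM in the estradiol libraries (1.75 ± 0.16), and its call held without each library. PCDH17, an adhesion protein of the protocadherin family, had 18.1 and 20.9 CPM with both hormones against 9.57 and 6.62 CPM with estradiol (1.28 ± 0.18) and lost its call without the unnumbered combination library or estradiol replicate 2. METTL7A, TSKU and GPR153, an orphan receptor, rose by 0.70 ± 0.10, 0.70 ± 0.11 and 0.88 ± 0.13. Of these 10 genes the other 8 lost the call without at least 2 of the 4 libraries compared, and TACC2 also with limma-voom (adjusted p = 0.0548). TUBA3E rested on 59 and 50 counts in the combination libraries and 2 and 7 in the estradiol libraries, and shares 1540 bases at 98.2% identity with TUBA3D, so its reads are not certain to be its own. PRKX shares 816 bases at 95.2% with PRKY, RASSF4 shares 698 bases at 100% with DEPP1, and PCDH17 shares 522 bases at 100% with AL445288.1. MICALCL was matched to no transcript, so its shared sequence was not searched.

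**Figure D2:**
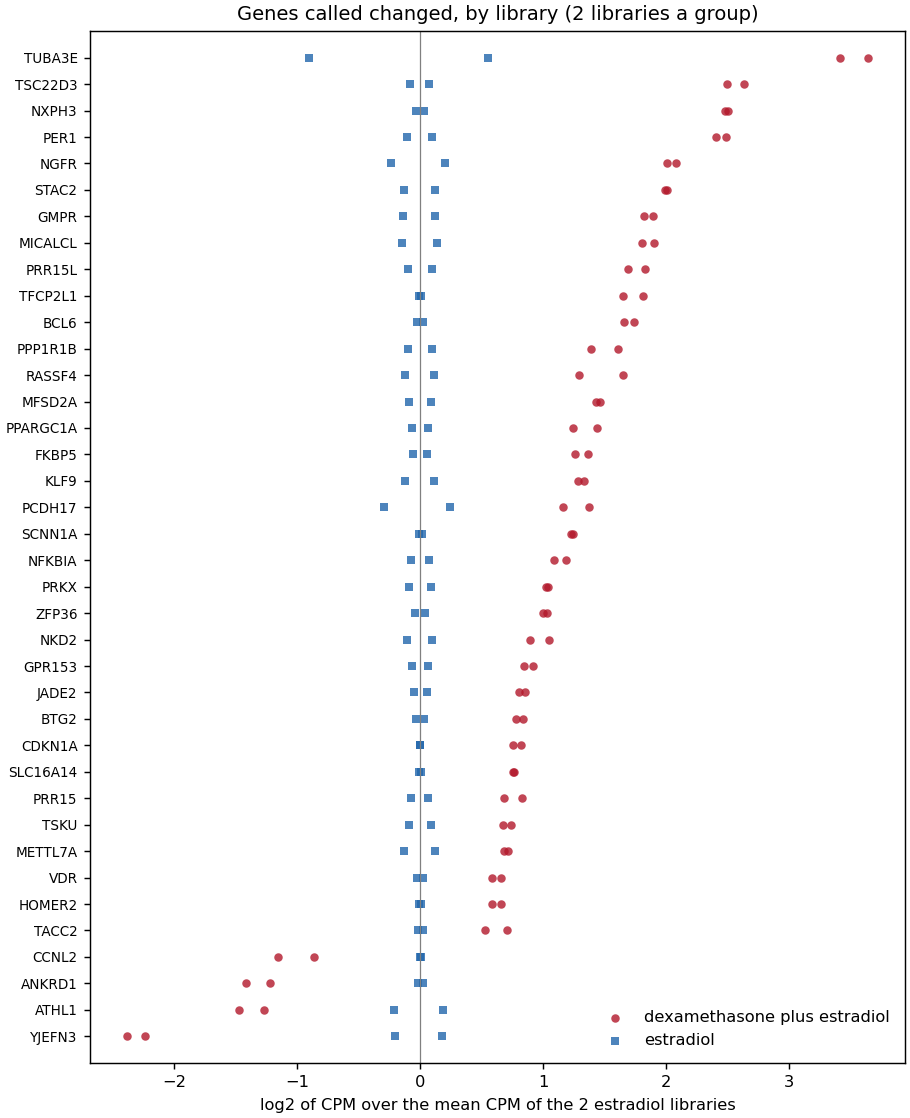
Genes called changed (38 of the 39), with the 2 combination libraries (red circles) and the 2 estradiol libraries (blue squares) as log2 of their CPM over the mean CPM of the estradiol libraries. The groups do not overlap at any gene shown, and the estradiol libraries of TUBA3E and PCDH17 are the most spread.

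The lowered genes were few and of unlike kinds. CCNL2, a cyclin that takes part in splicing, had 22.7 and 18.5 CPM in the combination libraries, against 41.2 and 41.4 CPM in the estradiol libraries (-1.001 ± 0.16, edgeR adjusted p = 0.0312). The estradiol libraries of CCNL2 stood above every other library of the series, with DMSO at 28.9 and 21.98 CPM. ANKRD1, a muscle ankyrin repeat protein and known target of the Hippo effector YAP, had 1.60 and 1.39 CPM with both hormones against 3.77 and 3.67 CPM with estradiol (-1.31 ± 0.22). ATHL1, a glycosidase, had 2.26 and 2.60 CPM with both hormones against 5.41 and 7.15 CPM with estradiol (-1.37 ± 0.22), and YJEFN3 0.488 and 0.539 CPM with both hormones against 2.87 and 2.21 CPM with estradiol (-2.28 ± 0.32). The genes ANKRD1, ATHL1 and YJEFN3 rest on low counts, 11 and 12 with both hormones against 51 and 50 with estradiol for YJEFN3. Exons of YJEFN3 overlap those of NDUFA13 on the same strand by 131 bases, and it shares a stretch of 483 bases at 100% with AC011448.1. ATHL1 was matched to no transcript, so its shared sequence was not searched. CCNL2, ANKRD1, ATHL1 and YJEFN3 each lost the call without any 1 of the 4 libraries compared, and ANKRD1 was not called with limma-voom (adjusted p = 0.0519).

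Genes were also grouped in lists for the known biology of both hormones. Of 60 glucocorticoid-induced genes 52 were tested, 13 were called higher (FKBP5, TSC22D3, PER1, KLF9, NFKBIA, TFCP2L1, SCNN1A, CDKN1A, BCL6, PPP1R1B, STAC2, GMPR and RASSF4) and 0 lower, against 0.239% higher over all genes, and the median log2 fold change was 0.30. Some members of that list were put there with earlier results of these data known, so its count is not independent evidence of its direction. Without the unnumbered combination library its median was 0.22. At an unadjusted p under 0.05 the list had 23 higher members and 1 lower, against 3.06% higher and 3.31% lower over all genes. Among those not called, DDIT4, an inhibitor of mTORC1, had 275 and 255 CPM with both hormones against 189.7 and 200.03 CPM with estradiol (log2 fold change 0.44 ± 0.09, adjusted p = 0.109), and CDKN1C, the p57 inhibitor of the cell cycle, 22.3 and 19.0 CPM with both hormones against 10.5 and 11.5 CPM with estradiol (0.91 ± 0.19, adjusted p = 0.113). Neither gene's groups overlapped. DESeq2 called both. The receptor and its cofactors showed 0 called members of 18 tested in edgeR, DESeq2 or limma-voom. At 0.275% of all genes called in edgeR, this says little about the list. It had 0 members at an unadjusted p under 0.05, and its median was -0.08. NR3C1, the receptor itself, had 62.9 and 64.9 CPM with both hormones against 65.5 and 58.3 CPM with estradiol (0.05 ± 0.10).

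Genes that estrogen is known to induce held no called member. Of 34 tested, 0 were called in edgeR, DESeq2 or limma-voom, against 0.275% of all genes in edgeR. With so small a share over all genes, 0 called of 34 says little about the list. At an unadjusted p under 0.05, 1 was higher and 2 lower, against 3.06% higher and 3.31% lower over all genes. The median was -0.03. With only the 4 libraries compared, edgeR called 2 lower, RBM24 and TGFA, against 0.572% lower over all genes in that fit. PGR, the progesterone receptor and a classic estrogen target, had 36.5 and 37.3 CPM in the combination libraries, against 41.0 and 31.8 CPM in the estradiol libraries (0.02 ± 0.32). GREB1, a coactivator induced by estrogen, had 30.3 and 34.2 CPM with both hormones against 28.1 and 29.9 CPM with estradiol (0.15 ± 0.28), and ESR1, the estrogen receptor, 144 and 154 CPM with both hormones against 125 and 121 CPM with estradiol (0.28 ± 0.10, adjusted p = 0.622). The groups overlapped at PGR and did not at GREB1 and ESR1, none of which passed the test. RBM24, an RNA-binding protein, was among the lower values at 2.53 and 2.42 CPM with both hormones against 4.84 and 5.34 CPM with estradiol (-1.04 ± 0.26, adjusted p = 0.27), and -1.05 ± 0.20 with only the 4 libraries compared (adjusted p = 0.0167). TGFA, a growth factor, had -0.39 ± 0.18 (adjusted p = 0.81), and -0.39 ± 0.09 with those 4 libraries (adjusted p = 0.0392).

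Several other lists held 1 or 2 called members each, against 0.239% higher and 0.0352% lower over all genes. These lists too were chosen with earlier results of these data known, so their counts are not independent evidence. In the circadian clock PER1 was called among 20 members, and NR1D2, a nuclear receptor that represses clock genes, stood at 31.4 and 38.5 CPM with both hormones against 52.2 and 44.3 CPM with estradiol (-0.47 ± 0.13, adjusted p = 0.362). The median of the clock list was 0.08, and -0.02 without the unnumbered combination library. NFKBIA and NGFR were called among 18 tested NF-kB and inflammatory genes, with a median of 0.03. ZFP36 was called among 18 immediate early genes, whose median was -0.12, and EGR1, an immediate early transcription factor, had 58.1 and 65.2 CPM with both hormones against 82.6 and 94.3 CPM with estradiol (-0.52 ± 0.10, adjusted p = 0.0938). The lists for ion and water transport (19 tested), lipid and glucose handling (24) and the cell cycle (30) held 1 called member each, SCNN1A, MFSD2A and CDKN1A, and had medians between -0.04 and 0.02. Of 22 Hippo genes ANKRD1 was called lower. Of 29 genes of cyclin L, SR proteins, CLK kinases and transcripts listed with them, CCNL2 and ATHL1 were called lower, of which ATHL1 encodes a glycosidase and not a splicing factor, and the median was -0.14.

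With 0.275% of all genes called in edgeR, 0 called members says little about the lists that follow. Feedback genes of growth factor signalling held no called member in edgeR or limma-voom. Of 26 tested, 7 were lower and 0 higher at an unadjusted p under 0.05 (3.31% lower and 3.06% higher over all genes), and the median was -0.06. With only the 4 libraries compared, edgeR called 3 of them lower, against 0.572% lower over all genes in that fit. SPRY4, an inhibitor of receptor tyrosine kinase signalling, had 12.2 and 13.2 CPM in the combination libraries, against 18.8 and 20.6 CPM in the estradiol libraries (-0.63 ± 0.13, adjusted p = 0.109), and its relative SPRY2 16.0 and 15.6 CPM with both hormones against 21.7 and 26.5 CPM with estradiol (-0.61 ± 0.12, adjusted p = 0.0938). EPHA2, an ephrin receptor, had 55.6 and 55.6 CPM with both hormones against 70.7 and 82.9 CPM with estradiol (-0.47 ± 0.10) and SOCS2, a suppressor of cytokine signalling, 5.95 and 6.78 CPM with both hormones against 10.5 and 9.54 CPM with estradiol (-0.65 ± 0.15). All 4 had groups that did not overlap, but were named for the smallest p of this list, so this is not further evidence. None passed edgeR's test over all genes, and DESeq2 called SPRY4, SPRY2 and EPHA2 lower (adjusted p = 0.0492, 0.0303 and 0.0295). DESeq2 called 75 genes in all. Ribosome biogenesis genes gave 0 called by edgeR, DESeq2 or limma-voom, 9 lower and 0 higher of 26 at an unadjusted p under 0.05, with a median of -0.18, and BOP1, a factor of large subunit assembly, had 8.08 and 7.36 CPM with both hormones against 10.2 and 11.3 CPM with estradiol (-0.48 ± 0.18). Ribosomal protein genes had a median of 0.13 with 0 called by any of these tools, and 2 higher and 0 lower of 27 at an unadjusted p under 0.05. They summed to 35656.9 and 30563.1 CPM in the combination libraries, against 28979.5 and 31153.7 CPM in the estradiol libraries, and the groups overlapped.

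The remaining lists had 0 called members in edgeR and limma-voom, which at 0.275% of all genes called in edgeR says little about them. In DESeq2 they had 3 called members in all (DDIT4, BAG3 and SOX17, higher), of 75 genes called there. TGF-beta, Nodal and BMP genes gave 5 higher and 0 lower of 25 at an unadjusted p under 0.05, against 3.06% higher and 3.31% lower over all genes. Of these genes 2 were called higher with only the 4 libraries compared, against 0.508% higher over all genes in that fit. LEFTY1, a Nodal antagonist, had 3.28 and 3.502 CPM in the combination libraries, against 0.732 and 0.795 CPM in the estradiol libraries (2.14 ± 0.51, adjusted p = 0.21). LEFTY1 shares 1203 bases at 96.4% with LEFTY2. The lists for mTORC1, apoptosis, Wnt, Notch, heat shock, the unfolded protein response, epithelial junctions, actin, endometrial receptivity, histones, interferon response and housekeeping had medians between -0.08 and 0.11, with 0 to 3 members at an unadjusted p under 0.05 each. BAG3, a chaperone cofactor of HSP70, had 224 and 215 CPM with both hormones against 154 and 159 CPM with estradiol (0.49 ± 0.10, adjusted p = 0.0938), and JAG1, a Notch ligand, 167 and 177 CPM with both hormones against 136 and 125 CPM with estradiol (0.40 ± 0.10, adjusted p = 0.248). In the marker lists, SOX17, a factor of the endometrial epithelium, had 126 and 126 CPM with both hormones against 80.2 and 93.9 CPM with estradiol (0.53 ± 0.11, adjusted p = 0.102). KDR, the VEGF receptor of endothelium, had 25 and 24 counts with both hormones against 3 and 4 with estradiol (2.62 ± 0.46, adjusted p = 0.0522), and of the other 5 endothelial markers ESAM had 7.77 and 6.64 CPM with both hormones against 5.80 and 5.74 CPM with estradiol, VWF had 2.35 and 2.02 CPM with both hormones against 1.86 and 2.52 CPM with estradiol, and PECAM1, CDH5 and TEK were at 0 or 1 count in every library.

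**Figure D3:**
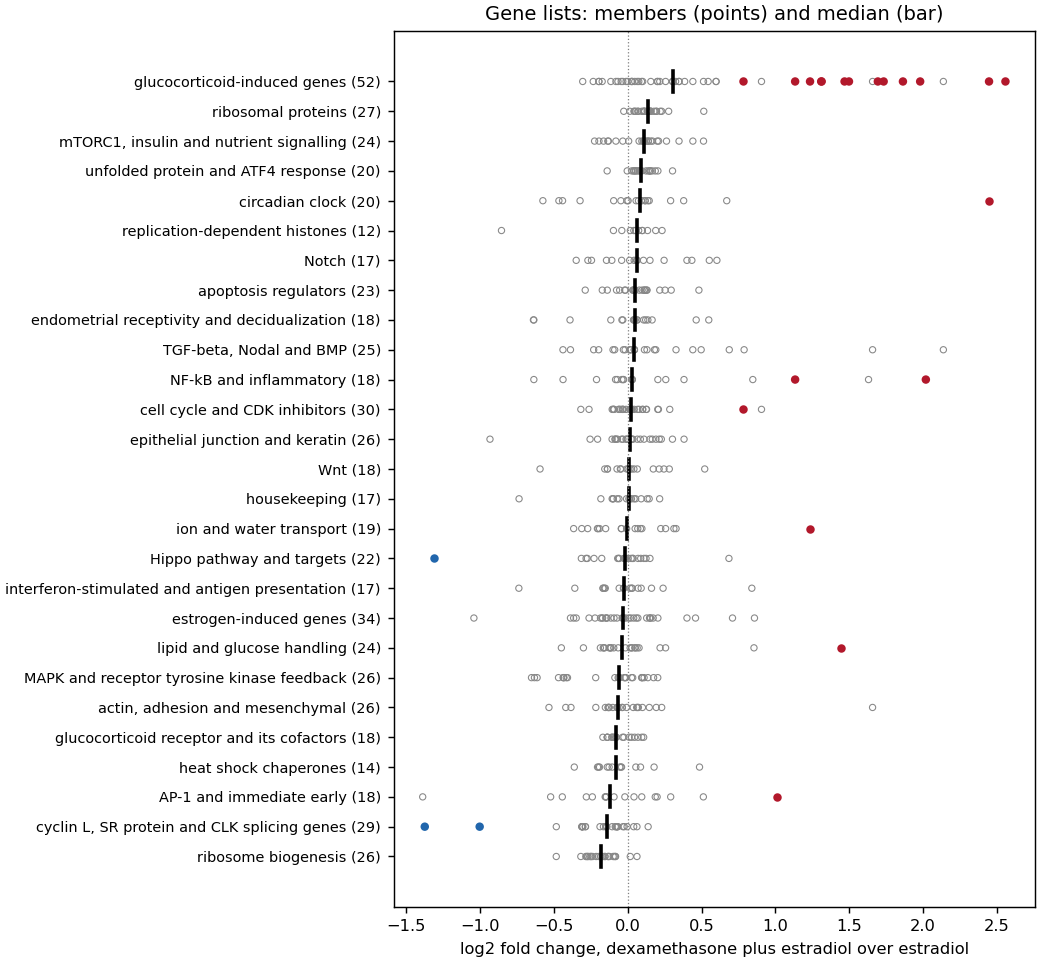
Log2 fold change of dexamethasone plus estradiol over estradiol for the tested members of each list (points, number tested in brackets) with the list's median (bar); filled points are called genes, red higher and blue lower, and the dotted line is the median of all tested genes. The 13 filled points of the glucocorticoid-induced list stand to the right, and the other lists cluster about 0 with 0 to 2 filled points each.

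Among large changes that did not pass the test in the fit of all 8 libraries, some rested on uneven libraries and others did not. PGAM4 stood at 2.13 and 16.7 CPM in the combination libraries, against 0.619 and 0.397 CPM in the estradiol libraries (4.23 ± 1.06), and TYW1B at 14.8 and 1.39 CPM with both hormones against 0.788 and 0.971 CPM with estradiol (3.18 ± 0.87). In each of these a single combination library carried the value. PGAM4 shares 765 bases at 98.3% identity with PGAM1, and TYW1B shares 3113 bases at 97.9% with TYW1. The reads of both are therefore not certain to be their own. With only the 4 libraries compared, edgeR called PGAM4 higher (adjusted p = 0.0126), against 0.508% higher over all genes in that fit. Elsewhere both combination libraries lay above both estradiol libraries, as at HIF3A, a hypoxia-inducible factor with 2.75 and 1.93 CPM with both hormones against 1.24 and 0.971 CPM with estradiol (1.09 ± 0.29, adjusted p = 0.315). Among lower genes, RPL39, a ribosomal protein, had 92.7 and 109.8 CPM with both hormones against 286 and 212 CPM with estradiol (-1.30 ± 0.44), MAMDC4 1.91 and 1.80 CPM with both hormones against 5.69 and 5.65 CPM with estradiol (-1.61 ± 0.32) and PABPC1L, a poly(A)-binding protein, 1.29 and 1.03 CPM with both hormones against 3.32 and 3.93 CPM with estradiol (-1.64 ± 0.35). These had groups that did not overlap, which the rule that chose them requires. Their DMSO libraries, which are not in the comparison, differed from each other, at 165 and 50.2 CPM for RPL39 and 3.46 and 1.41 CPM for MAMDC4. With only the 4 libraries compared, edgeR called RPL39, MAMDC4 and PABPC1L lower (adjusted p = 6.16e-05, 0.000561 and 0.00291). In that fit 0.572% of all genes were called lower. EEF1A1, a translation elongation factor, differed within the combination group, at 4030.2 and 7639 CPM, against 9795 and 9625 CPM with estradiol.

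The effect was then set beside that of dexamethasone in the absence of estradiol, which comes from the other 4 libraries. Dexamethasone alone changed 137 genes against DMSO (0.965% of those tested), 129 higher (0.908%) and 8 lower (0.0563%). Of these, 29 were also called when dexamethasone was added to estradiol, all higher in both, which is 21.2% of the 137 and 74.4% of the 39. The comparisons share no library, but share the fit. One library of the other background stood apart: dexamethasone replicate 1 had more of genes that estradiol raises, such as PGR at 8.91 and 2.47 CPM and G0S2, an inhibitor of lipolysis, at 62.6 and 25.2 CPM in replicates 1 and 2, and the estrogen-induced list summed to 3253 and 2799 CPM. Without it, dexamethasone alone changed 100 genes and 30 were called in both comparisons.

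The fitted response was smaller with estradiol at several of the strongest genes. TSC22D3 reached 70.0 and 63.5 CPM with both hormones and 119 and 149.6 CPM with dexamethasone alone, at log2 fold changes of 2.56 over estradiol and 3.23 over DMSO, and the difference did not pass the test over all genes (interaction -0.68 ± 0.20, edgeR adjusted p = 0.76). SCNN1A reached 231 and 233 CPM with both hormones and 337 and 378 CPM with dexamethasone alone (interaction -0.79 ± 0.13, adjusted p = 0.229), and STAC2 5.15 and 5.21 CPM with both hormones and 18.5 and 20.4 CPM with dexamethasone alone (interaction -1.56 ± 0.30, adjusted p = 0.238). At all 3 genes the combination libraries lay below both libraries of dexamethasone alone. PPP1R1B reached 29.4 and 25.3 CPM with both hormones and 68.1 and 63.5 CPM with dexamethasone alone, against 9.01 and 10.3 CPM with estradiol and 8.13 and 6.81 CPM with DMSO, and the difference between the log2 fold changes was -1.64 ± 0.19 (interaction, edgeR adjusted p = 0.0231). Over all genes the interaction was called for 3 (0.0211%), PPP1R1B and EHF lower (0.0141%) and POTEF higher (0.00704%). The call of PPP1R1B was lost without the unnumbered combination library, either estradiol library or dexamethasone replicate 1 (adjusted p up to 0.331). NFKBIA, BTG2 and BCL6 had interaction values of -0.01 ± 0.14, 0.00 ± 0.13 and -0.09 ± 0.24, and PER1 had -0.29 ± 0.15.

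Across the 34 raised genes, 25 had a smaller log2 fold change with estradiol than without and 9 a larger one, with medians over the 34 of 1.29 with estradiol and 1.54 without. An unadjusted interaction p under 0.05 was found for 9 of the smaller and 1 of the larger, against 3.43% of all genes with a lower value at that threshold. The 34 were chosen on the comparison with estradiol. Without dexamethasone replicate 1, 38 genes were raised, 27 of them less than without estradiol, and the medians were 1.26 with estradiol and 1.22 without, so the order of the medians turned. The 129 genes raised by dexamethasone alone were chosen on the other background, which favours a larger value there. Of these 120 were also positive with estradiol and 124 had a smaller log2 fold change with it. Their median was 0.50 with estradiol against 1.03 without. For the genes raised by dexamethasone alone when its replicate 1 was left out, the medians were 0.62 with estradiol and 1.28 without, so that order did not turn. Over all 14201 genes the median of the interaction was -0.01, with 51.6% of values negative.

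**Figure D4:**
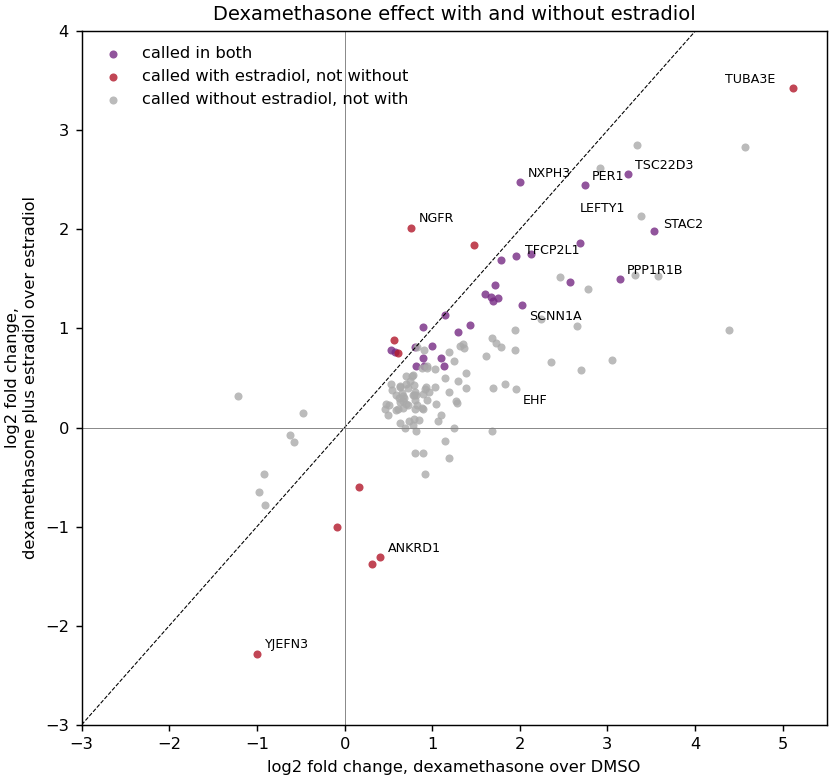
Log2 fold change of dexamethasone plus estradiol over estradiol (vertical) against that of dexamethasone over DMSO (horizontal) for genes called in either comparison; the dashed line marks equal values. Of the 34 raised genes 25 lie below the line, the 5 lowered genes lie below 0 on the vertical axis, POTEF (-6.30 and 0.13) is outside the plotted range, and the horizontal value of TUBA3E is a fitted value with both DMSO libraries at 0.

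Of the 39 genes, 10 were called with estradiol and not in dexamethasone alone: NGFR, TUBA3E, MICALCL, GPR153, PRR15 and the 5 lowered genes. The difference between the backgrounds was called for 0 of the 10 in edgeR and limma-voom and for 1 in DESeq2. An unadjusted interaction p under 0.05 was found for 6 of the 10, against 733 of all 14201 genes. The 10 were chosen as called in 1 background and not in the other, which itself favours a small interaction p. A call in just the estradiol background therefore does not show that they differ. NGFR stood at 5.32 and 5.07 CPM with both hormones and 1.07 and 1.46 CPM with estradiol, and at 3.08 and 2.81 CPM with dexamethasone and 1.57 and 1.90 CPM with DMSO, a difference of 1.26 ± 0.33 in log2 fold change (unadjusted p = 0.00326). ANKRD1 had 3.18 and 3.82 CPM with dexamethasone and 2.57 and 2.67 CPM with DMSO, the higher side being dexamethasone, and the difference was -1.72 ± 0.30 (unadjusted p = 0.000161). PRR15 and GPR153 had log2 fold changes of 0.61 and 0.57 with dexamethasone alone, which were not called (adjusted p = 0.0616 and 0.0972). TUBA3E had 6 and 2 counts with dexamethasone alone and 0 in both DMSO libraries.

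**Figure D5:**
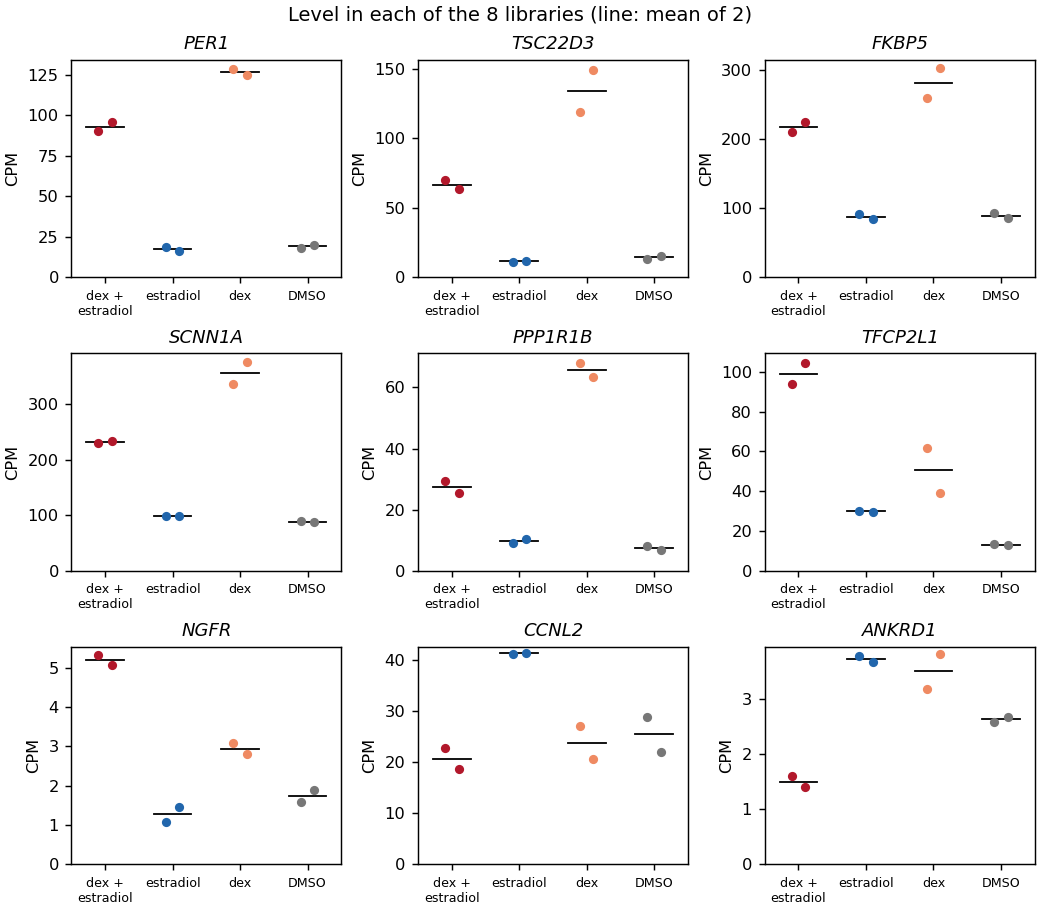
CPM of 9 genes in each of the 8 libraries by group (points, with the mean of 2 as a line; dex is dexamethasone). TSC22D3, SCNN1A and PPP1R1B are highest with dexamethasone alone, TFCP2L1 and NGFR are highest with both hormones, CCNL2 is highest with estradiol alone, and ANKRD1 is lowest with both hormones.

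Several of the 39 genes also answered to estradiol itself. Estradiol alone changed 256 genes against DMSO (1.8% of those tested), 169 of them higher (1.19%). That comparison shares the estradiol libraries with the one described here, in which they enter with the opposite sign, so only the values are given side by side. TFCP2L1 stood at 93.8 and 105 CPM with both hormones, 30.01 and 29.7 CPM with estradiol and 13.3 and 12.7 CPM with DMSO, so that it rose in both steps. TSKU, a secreted leucine-rich protein, stood at 80.9 and 84.4 CPM with both, 47.6 and 53.7 CPM with estradiol and 23.5 and 27.5 CPM with DMSO, and VDR at 44.4 and 46.8 CPM with both, 29.1 and 30.2 CPM with estradiol and 19.7 and 20.4 CPM with DMSO. These 3 were called higher in each comparison, and their libraries of the 3 groups did not overlap. ATHL1 and YJEFN3 were higher with estradiol over DMSO, by 1.15 and 1.51 on the log2 scale, and lower with both hormones than with estradiol. BTG2 and METTL7A were called lower with estradiol than with DMSO, at log2 fold changes of -0.50 and -0.66, and were higher with both hormones than with estradiol. BTG2 stood at 52.3 and 50.2 CPM with both, 29.9 and 28.6 CPM with estradiol and 42.9 and 39.7 CPM with DMSO.

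The number of called genes depended on which libraries shared the fit. With only the 4 libraries compared, 151 genes of 13977 tested were called (1.08%), 71 higher (0.508%) and 80 lower (0.572%), among them all 39. The lower ones included SPRY4, SPRY2, EPHA2, EGR1 and RPL39, with log2 fold changes of -0.64, -0.62, -0.47, -0.53 and -1.31 in that fit, and the higher ones DDIT4 (0.44), CDKN1C (0.90), KDR (2.61), SOX17 (0.53) and BAG3 (0.48). Of the 80 lower genes, 72 had an estradiol mean above the DMSO mean, and in 58 both estradiol libraries lay above both DMSO libraries. The estradiol libraries enter both comparisons with opposite sign, which itself favours this, so only the counts are given. In 61 of the 80 DMSO replicate 1 lay above replicate 2, and in 66 dexamethasone replicate 1 lay above replicate 2. Over all tested genes these replicate orders were found in 50.8% and 50.3%. Their part in the larger count was not tested. Of the 39 genes, PER1, TSC22D3, SCNN1A, MFSD2A, FKBP5, NFKBIA, PPP1R1B, PRR15L and NXPH3 kept the call whichever of the 8 libraries was left out, and 30 lost it without at least 1. Without estradiol replicate 1 the count was 10, all higher.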

How the data were processed

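The authors deposited a table of whole-number counts per gene for 8 libraries of mRNA (stranded kit, per the labels' protocols). HISAT2 2.0.4, DESeq2 1.14.1, featureCounts 1.5.1 and Subread are listed, with the build hg19, per the submitters' processing notes. Which annotation and strand setting were used is not given in the sources used here. The deposited normalised table was not used. Columns were matched to samples by name, and both combination columns carry the number 1. From these counts, genes were filtered with filterByExpr (14201 of 26364 kept), scaled by TMM and fitted with edgeR 4.0.16 (quasi-likelihood, R 4.3.3, limma 3.58.1) over 8 libraries in 4 groups, which leaves 4 residual degrees of freedom. P-values were adjusted by Benjamini-Hochberg over all genes of a contrast, with a threshold of 0.05. The code was tested on simulated data. Alternatives were RLE scaling, other filters, DESeq2 1.42.0, limma-voom, fewer libraries and RNA45S5 left out. Shared sequence was searched with blastn in GENCODE transcripts (stretches of at least 100 bases at 95% identity). Genes named are all called genes, up to 4 members of each of 32 lists by p, 10 uncalled genes in each direction with the largest change (unadjusted p under 0.05, mean log2 CPM above 1, groups not overlapping), 8 by interaction p and 7 chosen genes. Not all of these are printed, and some genes that the rule takes are left out. The members and lists were chosen with earlier results of these data known. Promoter sequences are RefSeq's on GRCh38.p14. Library totals lay between 17846211 and 22487333 counts, so genes of low CPM rest on few counts. RNA45S5 and dexamethasone replicate 1 were singled out with their values known.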

Additional observations from a re-analysis of the deposited data

Results flagged for a closer look

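The dexamethasone effect differed between the backgrounds, by the test of the difference itself, at POTEF, PPP1R1B and EHF. PPP1R1B rose less with estradiol, with a log2 difference of -1.64 ± 0.19 (edgeR adjusted p = 0.0231), and its values in the 8 libraries are given above. EHF, an epithelial transcription factor of the ETS family, had 16.7 and 19.1 CPM with both hormones and 13.9 and 13.6 CPM with estradiol, and 33.0 and 31.7 CPM with dexamethasone and 9.50 and 7.20 CPM with DMSO. Its difference was -1.57 ± 0.20 (adjusted p = 0.0462), and the call was lost without either combination library, either estradiol library or dexamethasone replicate 1 (adjusted p up to 0.366), and with a stricter filter (0.0579). POTEF had 1.95 and 2.11 CPM with both hormones and 1.75 and 1.94 CPM with estradiol, and 1.40 and 0.786 CPM with dexamethasone and 75.9 and 99.8 CPM with DMSO, a difference of 6.43 ± 0.37 (adjusted p = 4.08e-05) that rests on the DMSO libraries. POTEF shares 3536 bases at 99.3% identity with POTEE, so its reads are not certain to be its own.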

How the results depend on the processing

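The count of 39 called genes was the same with RLE scaling and without RNA45S5, and was 37 with a stricter filter and 38 with limma-voom. It was 132 with all genes of at least 1 count (71 higher, 61 lower), 75 with DESeq2 (46 higher, 29 lower) and 151 with only the libraries compared, and the 39 genes were among each of these. Without 1 library the count lay between 10 and 68, at 10 and 16 without estradiol replicates 1 and 2, 19 without combination replicate 1, and 68 and 63 without DMSO replicates 1 and 2. The count of 3 interaction calls was 32 with the 1-count filter and 15 with DESeq2, and 1 to 10 without 1 library. Dexamethasone alone changed 253 genes with the 1-count filter, 63 with only its own 4 libraries and 78 to 127 without 1 library. The 29 genes called in both comparisons became 58 with the 1-count filter and 44 with DESeq2, and 10 to 38 without 1 library. No paired analysis was possible because the combination columns both carry the number 1 and so share a single number with the estradiol group. For dexamethasone alone, a replicate block over the 7 numbered libraries gave 241 calls (215 higher, 26 lower). Same-numbered libraries had deviations with correlations of 0.243 between dexamethasone and DMSO, 0.0493 between dexamethasone and estradiol and 0.153 between DMSO and estradiol, and the labels do not say that a number marks a shared batch. Uncalled genes near 0 changed sign. Without 1 library the log2 fold change of PGR lay between -0.14 and 0.22, of NR3C1 between -0.026 and 0.13, of IRF9 between -0.62 and 0.017 and of VWF between -0.20 and 0.24, each with one end without estradiol replicate 1 and the other without replicate 2. That of HIST1H1C lay between -0.040 without combination replicate 1 and 0.18 without the unnumbered library, and VWF was 0.0014 with the 1-count filter. Where a lone library is left in a group it is assumed to vary like the other groups. The cause of these shifts was not tested. With 2 libraries a group, small changes and genes of few counts could go undetected.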
